A study of Drosophila melanogaster with 2 samples.

Results

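The small nuclear RNA (snRNA) genes of Drosophila melanogaster were taken as every gene of the snRNA biotype on the main chromosome arms of the Ensembl annotation, which gives 32 of 18277 genes. Of these, 28 encode RNAs of the spliceosome: 5 copies of U1, 6 of U2, 3 of U4, 7 of U5, 3 of U6 and 1 copy each of U11, U12, U4atac and U6atac. The other 4 (7SKa, 7SKb, U7 and LU) carry the same biotype but are not spliceosomal U types, so the label holds for 28 of the 32, and both counts are given where they differ. A gene was scored by whether a listed ChIP-seq summit, the position of highest signal in a region, lay within 500 bp of its start. Names are given without the snRNA prefix of the annotation.

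Chromatin immunoprecipitation with sequencing (ChIP-seq) had been done with an anti-GFP antibody on whole embryos of 1 transgenic line that stably carries fu2 with GFP at its C terminus; the insertion targets prg, a zinc finger gene on 2L of which fu2 is a synonym. All embryos were of that strain, 0 to 24 h old and of mixed sex, and 2 biological replicates, numbered 2 and 3, form the 1 group of the study. No untreated embryos, input library or unfused GFP sample was analysed here, so the values have no background of the same kind to be read against, and all cell types of the embryo contribute to them. All lists used were on the dm6 build, with 30000 regions each from the pooled data, replicate 2 and replicate 3. A further list held 3033 peaks that passed the irreproducible discovery rate (IDR) step, which judges how alike regions rank in replicates. These peaks equal the strongest 3033 pooled regions, so a single IDR peak need not rank alike in both replicates.

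snRNAs are short, stable RNAs that do not code for protein. In the major spliceosome U1 pairs with the 5′ splice site, U2 with the branch point, U4 holds U6 inactive until it is released, U5 aligns the exons and U6 forms the catalytic core, while U11, U12, U4atac and U6atac take the matching places in the minor spliceosome. Most snRNA genes are transcribed by RNA polymerase II, but U6, U6atac and 7SK are transcribed by RNA polymerase III. In Drosophila both kinds are driven by a proximal sequence element (PSEA), bound by the SNAPc complex, and the polymerase III genes carry a TATA box as well.

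The promoters are shown first, so that listed and unlisted copies of a U type can be compared by eye. Between copies, upstream identity ran from 60.2 to 72.3% in U1, 53.7 to 90.2% in U2, 53.5 to 59.8% in U4, 50.6 to 83.1% in U5 and 61.4 to 63.9% in U6, against 98.2 to 100%, 98.4 to 100%, 73.8 to 94.4%, 78.3 to 96.1% and 100% for the genes themselves. Each line gives the 80 bases just before the start on the gene's own strand, 5′ to 3′, read from the NCBI Release 6 genome (dm6). Capitals mark the word ATTCNCAA, which begins the PSEA, and TATAAA, each on either strand (a TTTATA is TATAAA on the other strand). The first 3 lines are the U6 copies, of which U6:96Ab and U6:96Ac share the IDR peak found at U6 genes, followed by the copies of 7SK, a listed and an unlisted U1 copy with identical genes, a listed and an unlisted U2 copy with identical genes, the U5 copy with an IDR peak, the listed U4 copy, and U6atac and U7 from the genes of 1 copy.
U6:96Aa, 3R:24556008-24556087, plus strand: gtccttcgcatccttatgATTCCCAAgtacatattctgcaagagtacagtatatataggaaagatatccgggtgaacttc
U6:96Ab, 3R:24556612-24556691, plus strand: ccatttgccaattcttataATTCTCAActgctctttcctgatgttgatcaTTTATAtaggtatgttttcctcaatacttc
U6:96Ac, 3R:24557135-24557214, plus strand: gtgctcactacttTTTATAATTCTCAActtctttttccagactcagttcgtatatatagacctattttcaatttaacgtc
7SKa, 3R:7474997-7475076, minus strand: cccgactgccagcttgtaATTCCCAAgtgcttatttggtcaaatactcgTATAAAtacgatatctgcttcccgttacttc
7SKb, 3R:23432789-23432868, plus strand: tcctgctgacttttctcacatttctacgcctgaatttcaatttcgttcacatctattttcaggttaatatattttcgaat
U1:95Ca, 3R:23859631-23859710, minus strand: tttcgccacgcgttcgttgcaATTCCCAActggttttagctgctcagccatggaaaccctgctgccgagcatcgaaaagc
U1:95Cb, 3R:23827790-23827869, plus strand: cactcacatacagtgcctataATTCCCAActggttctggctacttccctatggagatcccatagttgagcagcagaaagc
U2:34ABb, 2L:13215759-13215838, plus strand: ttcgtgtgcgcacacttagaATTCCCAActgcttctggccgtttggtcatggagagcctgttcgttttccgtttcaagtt
U2:34ABc, 2L:13244562-13244641, minus strand: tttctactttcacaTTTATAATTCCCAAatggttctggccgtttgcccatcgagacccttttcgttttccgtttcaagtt
U5:35D, 2L:15751683-15751762, minus strand: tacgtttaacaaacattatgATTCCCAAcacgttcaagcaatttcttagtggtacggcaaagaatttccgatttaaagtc
U4:39B, 2L:21215179-21215258, minus strand: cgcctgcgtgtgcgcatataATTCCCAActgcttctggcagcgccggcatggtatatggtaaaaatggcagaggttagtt
U6atac, 2L:8389644-8389723, plus strand: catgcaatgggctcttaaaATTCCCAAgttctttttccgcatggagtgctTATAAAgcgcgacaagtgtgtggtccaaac
U7, 3L:3593743-3593822, plus strand: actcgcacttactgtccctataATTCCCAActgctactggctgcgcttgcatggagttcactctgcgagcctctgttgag
The word ATTCNCAA stands at nearly the same place in every line but that of 7SKb, which has none.

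Over the window from 250 bases before to 50 after the start, 31 of the 32 snRNA genes (96.9%) held ATTCNCAA, against 1131 of 18277 (6.19%) of all genes. This word was chosen after the sequences of these 32 genes were read, so the contrast is not independent of them. All 31 had it on the gene's own strand, with its first base between position −65 (U4:25F) and −56 (U4atac) and a median of −59, where negative positions are upstream. The longer word ATTCNCAAC, which contains it, was found in 22 of 32 snRNA genes (68.8%), against 242 of all genes (1.32%). It stood on the gene's own strand in 21 of the 22, and in U2:34ABc only on the opposite strand, at −236. TATAAA was found in 15 of 32 (46.9%), against 43.9% of all genes. At the place of a TATA box it stood in 3 polymerase III genes, with its first base at −31 in 7SKa and at −30 in U6atac and, on the opposite strand, U6:96Ab. At about the same place the lines above show TATATATA in U6:96Aa and U6:96Ac, which the searched word does not match. The words TATCGATA and GGTCACACT, the core of elements found at many housekeeping promoters of the fly, were found in 0 of 32 snRNA genes. Their shares were 7.48% and 4.76% of all genes, 1.72% and 0.345% of tRNA genes, and 1.12% and 0.372% of snoRNA genes. With 32 genes, a count of 0 is not far from these shares. All words were searched on both strands. A match is a description of these letters and no measure of binding.

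Of the 32 snRNA genes, 4 had an IDR summit within 500 bp: the polymerase III genes 7SKa, U6:96Ab and U6:96Ac, and U5:35D. These 4 genes rest on 3 peaks, since U6:96Ab and U6:96Ac count the same one. The share is 12.5% (exact Clopper-Pearson 95% interval 3.51 to 29.0%, which covers counting over genes only), against 13.0% of all genes and 3.51% of the 4277 other non-coding genes and pseudogenes. The snRNA share thus lies close to that of all genes. Of the 28 spliceosomal genes alone, 3 had an IDR summit.

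In the pooled list, which by its name holds peaks and background, 14 of 32 snRNA genes (43.8%, interval 26.4 to 62.3%) had a summit within 500 bp in 13 regions, against 46.7% of all genes and 26.8% of other non-coding genes and pseudogenes. In replicate 2 the count was 18 of 32 (56.2%, interval 37.7 to 73.6%), against 43.6% of all genes and 27.2% of other non-coding genes and pseudogenes. In replicate 3 it was 9 of 32 (28.1%, interval 13.7 to 46.7%), against 46.9% of all genes and 26.9% of other non-coding genes and pseudogenes. The replicate shares average 42.2% ± 19.9 (SD, n = 2). The snRNA genes were listed more often in replicate 2 than in replicate 3, while all genes were listed at similar shares in both. The snRNA interval of replicate 3 ends at 46.7%, just below the 46.9% of all genes, and the other intervals span that share in their lists. These intervals treat the genes as independent, although the 9 genes of replicate 3 rest on 8 regions. They are not a test, and no conclusion is drawn from so small a margin. Among other short RNA genes, snoRNA genes had a pooled summit in 32.3% of 269 and tRNA genes in 35.2% of 290.

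**Figure D1:**
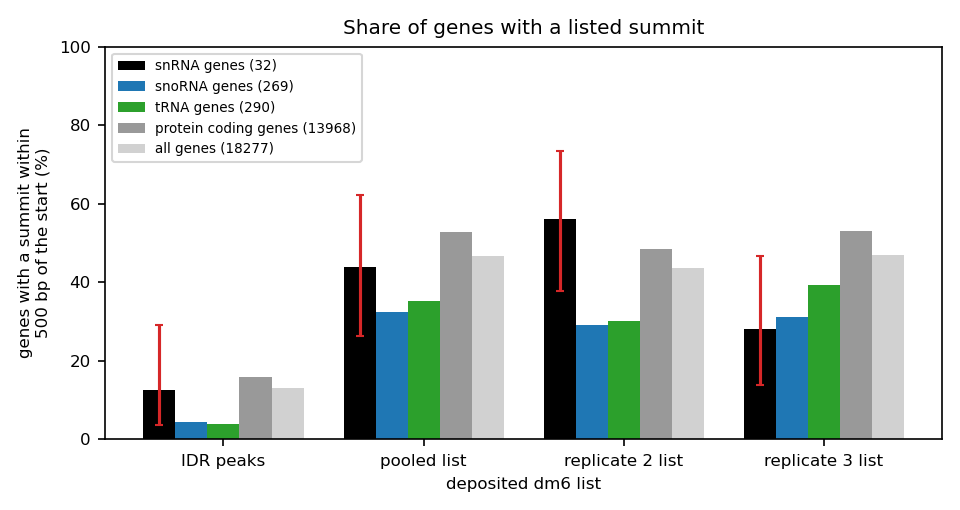
Share of genes (percent, vertical axis) with a summit within 500 bp of the start in each deposited list, for snRNA, snoRNA, tRNA, protein coding and all genes. Red bars are exact 95% intervals for the snRNA genes. The snRNA share is 12.5% in the IDR peaks and 56.2% in replicate 2 but 28.1% in replicate 3, against 13.0%, 43.6% and 46.9% of all genes.

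The replicate lists are nested for these genes. All 9 snRNA genes with a replicate 3 summit also had one in replicate 2 (7SKa, U1:95Ca, U2:34ABa, U2:34ABb, U4:39B, U5:35D, U5:63BC, U6:96Ab and U6:96Ac), and all 9 were in the pooled list. Another 9 had one in replicate 2 only: 7SKb, LU, U11, U12, U1:21D, U4atac, U5:38ABa, U6atac and U7. No gene was listed in replicate 3 only, and 14 were in no list. The 9 shared genes ranked higher by the median, where rank 1 is the region with the highest signal value of its list. In replicate 2 their ranks ran from 1256 to 12104 (median 3889), against 6177 to 27129 (median 14475) for the 9 genes of replicate 2 only, so the ranges overlap. In the pooled list the 9 ranked from 1847 to 6850. The 5 of the other 9 that were listed there ranked from 11829 to 23709, with no overlap. The pooled list was made from both replicates, so its order is not independent of this grouping. The grouping also uses the replicate 2 list, so the replicate 2 ranks are not independent of it either. The same overlap and ranks were not counted over all genes, so the nesting is not shown to be particular to snRNA genes. The −log10 q-value that the authors give a pooled region is larger for stronger regions only up to 3.95, the value of every IDR peak. It ran from 1.64 to 3.95 in the 9 and from 0.09 to 0.58 in those 5.

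**Figure D2:**
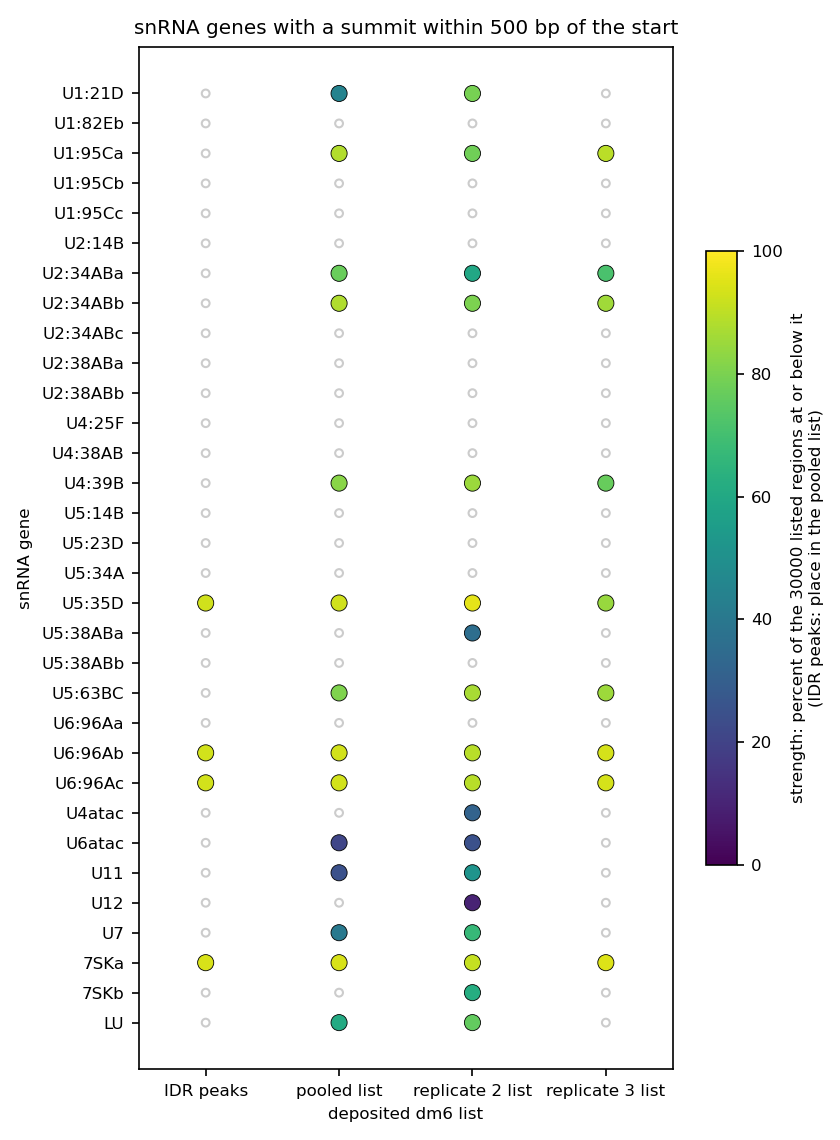
Each row is an snRNA gene and each column a deposited list. A filled point marks a summit within 500 bp of the start, coloured by its place in the list (percent of the 30000 regions at or below it), and an open point marks none. Filled points stand in all 4 columns for 7SKa, U5:35D, U6:96Ab and U6:96Ac, and 9 genes are filled in both replicates.

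By U type, 2 of the 3 U6 genes had an IDR call, but both count 1 shared peak, and 7SK and U5 had 1 called gene each. U6:96Aa (FBgn0004188, 3R:24556088-24556194), U6:96Ab (FBgn0004189, 3R:24556692-24556798) and U6:96Ac (FBgn0004190, 3R:24557215-24557321) lie in a row on the plus strand with identical gene sequence (100%) and upstream sequence of 61.4 to 63.9% identity. A single IDR peak at 3R:24556903-24557306 lies between the starts of U6:96Ab and U6:96Ac, with its summit at −110 from the start of U6:96Ac and 413 bp after that of U6:96Ab. Its signal value was 80.2 (pooled rank 2065). In replicate 2 the value was 23.4 (rank 3186, summit −121 from U6:96Ac), and in replicate 3 it was 54.5 (rank 1879, summit −104), values that compare only by rank because the lists were called separately. The PSEA word of U6:96Ac begins at −61 and lies in the peak, while that of U6:96Ab, also at −61, does not. U6:96Aa had no summit within 500 bp. Its nearest pooled summit was at −624 with a value of 30.8, its nearest replicate 3 summit was at −623 with 24.9, and the shared IDR summit lay 1017 bp away.
U6:96Ab and U6:96Ac shared summit, 3R:24557055-24557155, plus strand: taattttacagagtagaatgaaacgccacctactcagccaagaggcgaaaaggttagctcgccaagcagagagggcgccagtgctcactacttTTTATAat
This line gives the shared summit with 50 bases on either side, with capitals as above. It lies in the spacer before U6:96Ac, with the TATAAA word on the opposite strand at its end.

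7SK RNA holds the elongation factor P-TEFb inactive. 7SKa (FBgn0065099, 3R:7474553-7474996, minus strand) had the strongest IDR summit of any snRNA gene, with a signal value of 85.9 (pooled rank 1847), 157 bp after its start and inside the gene. In replicate 2 the value was 26.4 (rank 2667, 125 bp after the start) and in replicate 3 it was 60.8 (rank 1573, 187 bp after the start), with a weaker replicate 3 summit at −22 (18.1, rank 10843). The strongest summit thus lay inside the gene in both replicates, and no other gene start lay within 500 bp of the IDR summit. 7SKb (FBgn0288809, 3R:23432869-23433272) shares 49.7% of its bases with 7SKa in alignment. It had only a replicate 2 summit at −481 with a value of 11.7 (rank 11465), and its nearest pooled summit lay at −36842.
7SKa summit, 3R:7474789-7474889, minus strand: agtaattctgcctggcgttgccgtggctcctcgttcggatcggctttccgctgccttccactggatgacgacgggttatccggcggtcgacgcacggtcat
These bases around the summit lie inside the 7SKa gene. Their GC content is 61.4%, the highest of the 13 pooled regions counted for snRNA genes, whose median is 42.6%, against 44.6% for the whole pooled list and 36.6% for all IDR peaks.

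Among the U5 genes, 1 of 7 had an IDR summit, 2 a pooled one, 3 a replicate 2 one and 2 a replicate 3 one. U5:35D (FBgn0003936, 2L:15751557-15751682, minus strand) counted a summit with a signal value of 76.9 (pooled rank 2212), but 498 bp after its start and past its end, at the edge of the rule. That summit was 106 bp from the start of ND-B17, which encodes a subunit of mitochondrial complex I. In replicate 2 the value was 41.7 (rank 1256) and in replicate 3 it was 30.6 (rank 4575), both 499 bp from the U5:35D start. A weaker summit stood closer to U5:35D, at 281 bp in the pooled list (20.2, rank 17432) and at 294 bp in replicate 2 (13.5, rank 8285). U5:63BC had pooled summits 100 bp (39.7, rank 5830) and 312 bp (37.3, rank 6415) after its start. Its replicate 2 summit had a value of 20.6 (rank 3889, 340 bp after the start) and its replicate 3 summit 31.3 (rank 4433, 137 bp). U5:38ABa had only a replicate 2 summit of 9.17 (rank 19277) 304 bp after its start. U5:14B, U5:23D, U5:34A and U5:38ABb were in no list.

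Of the 5 U1 genes none had an IDR summit and 2 had a pooled one. U1:95Ca (FBgn0004185, 3R:23859467-23859630, minus strand) came nearest to the IDR peaks of all snRNA genes outside them, with a pooled signal value of 56.4 (rank 3497) against 62.5 in the weakest IDR peak. Its summit stood 48 bp after the start in the pooled list, 82 bp after it in replicate 2 (15.2, rank 6528) and 60 bp after it in replicate 3 (39.8, rank 3131). U1:21D had a pooled value of 20.8 (rank 16612) 8 bp after its start and replicate 2 summits of 15.7 (rank 6177, 162 bp) and 8.77 (rank 21038, −42), with none in replicate 3. U1:82Eb, U1:95Cb and U1:95Cc were in no list. The genes of U1:95Ca, U1:21D and U1:95Cb are identical (100%), so listed and unlisted copies stand among the same gene sequence.

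Of the 6 U2 genes, 2 were listed in the pooled, replicate 2 and replicate 3 lists alike, and none was an IDR gene. U2:34ABb (FBgn0004192, 2L:13215839-13216030, plus strand) had a pooled value of 55.2 (rank 3605) 47 bp after its start, with a further summit of 32.7 (rank 7708) at 248 bp. Its value was 15.9 (rank 5972, 158 bp) in replicate 2 and 32.0 (rank 4282, 98 bp) in replicate 3. U2:34ABa, 3723 bp away, had 35.5 (rank 6850, 84 bp) in the pooled list, 11.4 (rank 12104, 105 bp) in replicate 2 and 20.8 (rank 8591, −2) in replicate 3. The start of the protein coding gene CG15482 was 218 bp from that pooled summit. The third gene of this group, U2:34ABc, has the same gene sequence as U2:34ABb (100%) and was in no list, as were U2:14B, U2:38ABa and U2:38ABb.

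Of the 3 U4 genes, U4:39B (FBgn0003930, 2L:21215036-21215178, minus strand) was listed in both replicates with its summits close together, 26 bp after the start in the pooled list (42.1, rank 5327), 48 bp in replicate 2 (18.8, rank 4505) and 30 bp in replicate 3 (23.7, rank 6933). U4:25F and U4:38AB were in no list.

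The genes of the minor spliceosome were listed in replicate 2 and not in replicate 3, and none had an IDR summit. U11 had 17.4 (rank 22541, 44 bp after the start) in the pooled list and 10.5 (rank 14475, 209 bp) in replicate 2, with a further replicate 2 summit of 7.84 (rank 26053) at −35. U6atac had 16.9 (rank 23709, 270 bp) in the pooled list and 8.45 (rank 22604, 248 bp) in replicate 2. U12 had 7.67 (rank 27129, 21 bp) and U4atac 8.87 (rank 20577, −178) in replicate 2 alone. The pooled values of U11 and U6atac lie below the median of that list, 22.0. In replicate 2 the strongest U11 value lies just above the list median of 10.3, and those of U6atac, U12 and U4atac lie below it. U7, which guides the 3′ end processing of histone mRNAs, had 20.0 (rank 17814, −78) in the pooled list, and 12.5 (rank 9867, −77) and 11.2 (rank 12581, −341) in replicate 2. Its strongest summit in both lists stood just upstream of its PSEA word, which begins at −58. LU had 25.3 (rank 11829) 443 bp after its start in the pooled list and 14.5 (rank 7161, 435 bp) in replicate 2, and its start lies in the FASN2 gene.

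**Figure D3:**
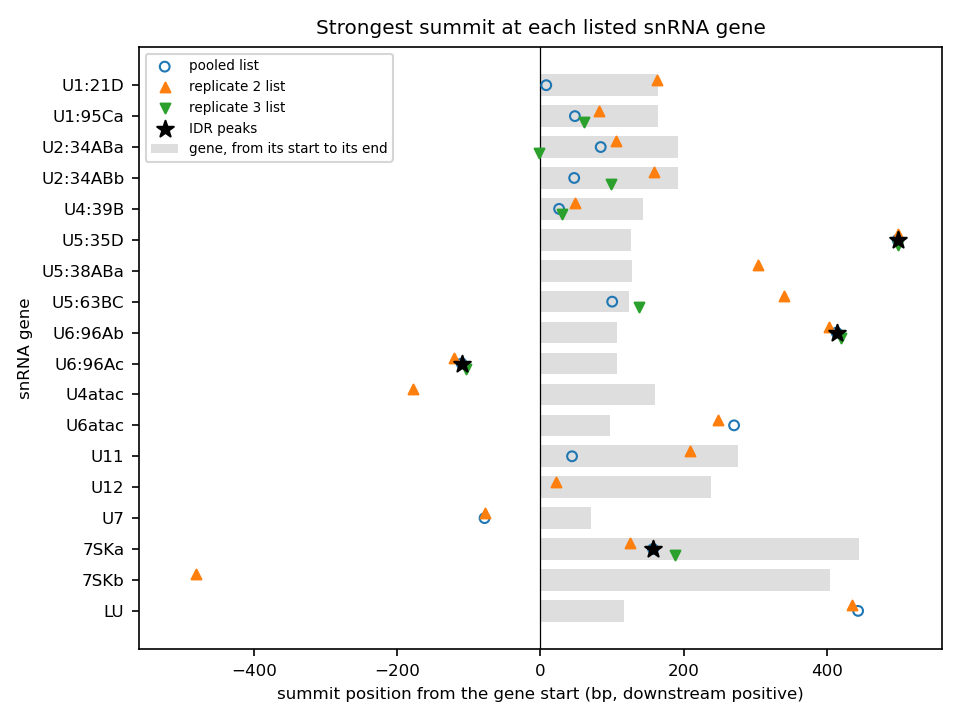
Position of the strongest summit within 500 bp of each listed snRNA gene (horizontal axis, bp from the start, downstream positive). Grey bars span the gene and symbols mark the list. For U4:39B the symbols stand from 26 to 48 bp after the start, and for U5:35D all stand at 498 or 499 bp.

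Over the 14 pooled snRNA genes, the strongest summit was upstream of the start in 2, inside the gene in 8 and past its end in 4, and the listed region covered the start in 10. The summits ran from −110 to 498 bp, with a median distance of 92.0 bp. The PSEA word lay within the region of the strongest summit in 9 of these 14 genes. In replicate 2 it did so in 8 of the 17 genes that have the word. The counts were 6 of 9 in replicate 3 and 1 of 4 in the IDR peaks. Weaker regions listed for the same gene were not counted, so the replicate counts are lower bounds for any listed region. ATTCNCAA was present in 14 of 14 genes with a pooled region and in 17 of 18 without one. The longer ATTCNCAAC was present in 12 of 14 with a pooled region and in 10 of 18 without, and TATAAA in 6 of 14 with and 9 of 18 without. No test was made of these counts.

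The neighbourhood of the listed genes differed from gene to gene. Of the 14 pooled genes, 9 had no other gene start within 500 bp of the summit, 2 had a protein coding start there (U2:34ABa and U5:35D), and only for U5:35D was that start the nearer one. A protein coding transcript start lay within 500 bp of the gene start of 3 of 32 snRNA genes, U2:34ABa (CG15482, 302 bp), U2:34ABb (kek4, 489 bp) and U6atac (CG42819, 393 bp). All 3 are among the 14 with a pooled region, against 0 of the 18 without one, and the part of these starts in the calls was not tested. The start of 18 of the 32 lies within another annotated gene.

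A group that was almost never listed is the U2 and U5 genes that face away from each other from a shared spacer. There are 4 such pairs with 287 to 609 bp between the starts: U2:14B and U5:14B, U2:34ABc and U5:34A, U2:38ABb and U5:38ABa, and U2:38ABa and U5:38ABb. Of these 8 genes 0 had an IDR summit, 0 a pooled one, 1 a replicate 2 one (U5:38ABa) and 0 a replicate 3 one. The other 24 snRNA genes gave 4, 14, 17 and 9 in the same lists. The shares of all genes in these lists were 13.0%, 46.7%, 43.6% and 46.9%, so an IDR count of 0 in 8 genes is not far from the first share. This grouping was made after the values were seen, so its low counts are no independent result.

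Copies with the same sequence could bear on these counts. A read that matches several copies equally well cannot be assigned to one of them. The sources used here do not say whether the authors kept such reads. The share of 36-base words within 500 bases on either side of a start that occur once in the genome was lowest at U2:38ABa (46.2%), U2:34ABc (48.1%), U2:38ABb (49.7%) and U5:34A (73.6%), all members of the facing pairs and none in the pooled list. At the 14 genes with a pooled region the share ran from 80.6 to 100% (median 94.1%), against 46.2 to 100% (median 92.2%) at the 18 without one, so the ranges overlap. Inside the gene itself no such word was unique in U1:21D, U1:95Ca, U2:34ABb, U6:96Ab and U6:96Ac, which were in the pooled list, nor in U1:95Cb, U2:34ABc, U2:38ABa and U6:96Aa, which were not. U4:25F, U4atac, U12 and 7SKb had only unique words (100%) and no pooled region. The 4 genes with the lowest shares, from 46.2 to 73.6%, had no pooled region, and genes with only unique words were found both with and without one. The part of repeated sequence in the counts was not tested.

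**Figure D4:**
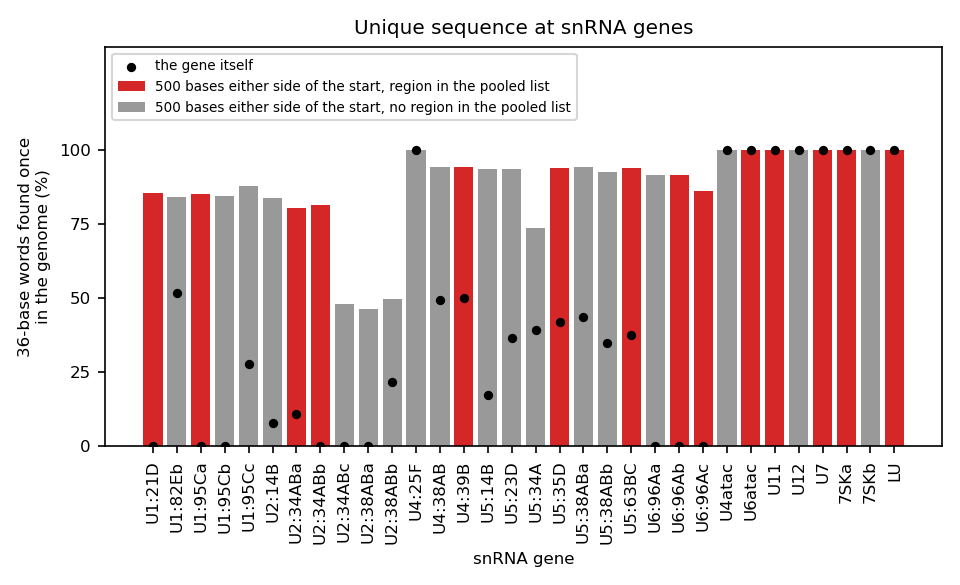
Share of 36-base words that occur once in the genome (percent, vertical axis) for each snRNA gene. Bars give the 500 bases on either side of the start, red for genes with a pooled region and grey for those without, and points give the gene itself. The 3 lowest bars, from 46.2 to 49.7%, are grey U2 genes, while grey bars of 100% stand at U4:25F, U4atac, U12 and 7SKb.

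The genes of proteins that make, process and assemble snRNAs were scored by a summit within 500 bp of any transcript start. Of 69 listed, 63 matched the annotation, and 15 of the 63 (23.8%) had an IDR peak, against 17.5% of all protein coding genes. A pooled region was found for 56 of the 63, against 55.7% of all protein coding genes scored in the same way. In the list of SNAPc, which binds the PSEA, and of TFIIIB, which recruits RNA polymerase III, 3 of 7 had an IDR peak and 6 of 7 a pooled region. The 3 with an IDR peak were the TFIIIB subunit genes Bdp1 (signal value 531.7, rank 47 in the pooled list, 41 in replicate 2 and 48 in replicate 3) and Brf (322.6, ranks 128, 179 and 111 in the same lists), and the SNAPc subunit gene Pbp95 (86.4, ranks 1828, 1922 and 1991). Bdp1 and Brf thus had far higher signal than any snRNA gene, whose highest was 85.9. Integrator cleaves the 3′ end of polymerase II snRNAs, and 5 of its 14 genes had an IDR peak and 14 of 14 a pooled one. Those with an IDR peak were IntS6 (214.7), IntS9 (164.0), IntS10 (158.6), defl (131.5) and IntS11 (128.6), the endonuclease gene.

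For the proteins of the U1 and U2 particles the count with an IDR peak was 5 of 12, with Sf3b6 (129.9), snf (95.5), Sf3a2 (75.2), Sf3b1 (72.0) and snRNP-U1-C (64.5). It was 1 of 9 for the proteins of the U4/U6 and U5 particles (Prp31, 123.1) and 1 of 10 for snRNP assembly and transport (Smn, 98.6). It was 0 of 6 for the Sm ring that binds the polymerase II snRNAs, 0 of 3 for the LSm ring that binds U6, and 0 of 2 for U7 particle proteins. All 15 genes with an IDR peak were listed in both replicates. The IDR peaks were made from the pooled and replicate lists, so this is no independent result. How often it holds over all genes was not counted. All 6 Sm genes had a pooled region, against the 55.7% of protein coding genes given above, and SmD3 with 56.7 (rank 3472) stood highest among them, below the 62.5 of the weakest IDR peak. Sf3b6, Sf3a2 and Sf3b1 encode U2 particle proteins, and snf encodes a protein of both the U1 and the U2 particle. The U1 and U2 snRNA genes themselves, scored by the gene start only, had 0 of 5 and 0 of 6 IDR summits, against 13.0% of all genes. With so few genes, a count of 0 is not far from that share.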

How the data were processed

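fu2-GFP ChIP-seq peak lists of 2 biological replicates of 1 group, with chromatin sonicated to 200 to 800 bp per the labels, were used on dm6, and the dm3 lists were not used here. The deposited lists give, per region, a signal value, the −log10 of a q-value, and the summit offset from the region start in bp, all as the authors made them. Per the file manifests, a replicate list was made from that replicate's alignment and the pooled list from both, with 1 further input each time, and the IDR peaks were made from these lists. The sources used here do not name the aligner, the peak caller, the IDR threshold or the treatment of reads that match several places. Reads are not in the lists, so depth is unknown. The 3033 IDR peaks equal the strongest 3033 pooled regions. Signal values of lists called separately share no scale and were compared by rank.

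Gene starts came from Ensembl release 115 (BDGP 6.54), sequence from the NCBI Release 6 genome of the same assembly. A gene was called when a summit lay within 500 bp of its start. No test was run: there is 1 group and no control, and counts stand beside those of all genes. Every snRNA gene with a summit in any list is named, as is every gene of the partner protein lists with an IDR peak. SmD3 and the facing pairs were chosen after their values were seen. Members, lists and words were chosen with earlier results of these data known, and ATTCNCAA after the members' sequences were read. Alternatives were other distances, region overlap, stronger regions only, single replicates, nearest starts only, and spliceosomal types only. Symbols not matched were SmG, LSm2, LSm5, LSm6, LSm8 and Prp28. Tools were biopython 1.88, matplotlib 3.10.9, scipy 1.17.1, pandas 2.3.3, numpy 2.4.6 and Python 3.11.15. The code was checked: start calls equalled a direct search in 4000 of 4000 cases, and 200 of 200 planted words were found.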

Additional observations from a re-analysis of the deposited data

How the results depend on the processing

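Of 34 alternatives, 27 gave a count within 1.5 times the one reported and 7 did not. The 4 snRNA genes with an IDR summit became 2 at 200 bp and 2 with only the nearest transcript start counted, in both cases 7SKa and U6:96Ac. They became 2 where the region had to overlap the gene start and 0 with the stronger part of the IDR peaks alone. Taking the strongest 3033 regions of 1 replicate in place of the IDR peaks gave from 2 (without replicate 3: 7SKa and U5:35D) to 3 genes (without replicate 2: 7SKa, U6:96Ab and U6:96Ac). The nearest start was added as an alternative after seeing the data. The 18 genes listed in replicate 2 became 11 at 200 bp and 11 with region overlap. The 14 genes with a pooled region became 10 at 200 bp and 18 at 1000 bp, and 11 without 7SK, U7 and LU. No paired analysis was possible because there is 1 group. Depth is not known, so a gene with no summit is not shown to lack binding.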

Other observations

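Within 1000 bp of the start, 4 more snRNA genes had a pooled summit, U12, U5:23D, U5:38ABb and U6:96Aa. The word CAACACTG, taken from earlier results of these data, was present near the starts of 2 of 32 snRNA genes (6.25%), U1:82Eb and U5:14B, against 2.94% of all genes, and near 0 of 14 with a pooled region.

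The 5 snRNA genes of cytological region 38AB (U2:38ABa, U2:38ABb, U4:38AB, U5:38ABa and U5:38ABb) all start inside the sick gene. Only U5:38ABa was listed, in replicate 2 with a signal value of 9.17. The nearest pooled summits had signal values of 29.3 for U2:38ABa, U2:38ABb and U5:38ABb, 954 to 4722 bp away, and of 23.6 for U4:38AB and U5:38ABa.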
